A study of Homo sapiens with 6 samples.

Results

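The protein-coding genes PRKRIP1, POPDC3, C1orf122, C20orf96, NUDT17, ZNF627 and TULP3 stood out in RNA that was pulled down with CyCoNP, a cytoplasmic long noncoding RNA of neural progenitors that is transcribed from LINC02381. These 7 genes, of 60676 in the count table and 12565 tested, were chosen for their high counts in both CyCoNP pull-down libraries, and no numerical limit was applied, so there are no values just inside or just outside a threshold. Their levels in the CyCoNP pull-down, and every comparison with those libraries, are therefore a description and no evidence of recovery. The cells were SK-N-BE, an established human neuroblastoma line, at day 1.5 of differentiation with 10 µM retinoic acid, and the labels give all 3 groups the same cells, and name no genetic change. Biotinylated antisense probes and streptavidin beads retrieved CyCoNP from a native extract (CyCoNP PD), probes against the bacterial LacZ gene served as the control (LacZ PD), and a portion of the extract was kept as input. Each group has 2 libraries, which the study describes as biological duplicates.

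A pull-down of this kind recovers the probed RNA, RNAs that are attached to it directly or through proteins, and RNAs that pair with a probe or stick to the beads. The readout is the share of each gene in the recovered RNA. For a given gene the share in input states how common its transcript was in the extract, and the share in LacZ PD states how much came down without the CyCoNP probes. Lysis, mixing and bead washing all precede the cDNA amplification, so a count says nothing of the step at which a transcript was retained.

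No pathway common to the 7 genes is known, and none was tested for. PRKRIP1 is a nuclear protein first described as an inhibitor of PKR, the kinase that halts translation on sensing double-stranded RNA, and it is also a component of the catalytic spliceosome. POPDC3 is a Popeye domain protein, a membrane protein that binds cyclic AMP and is known mainly from skeletal and cardiac muscle. TULP3 is a tubby-like protein that carries membrane receptors into the primary cilium with the intraflagellar transport complex IFT-A and restrains Hedgehog signalling. NUDT17 belongs to the Nudix hydrolases, which cleave nucleoside diphosphates linked to other groups, and ZNF627 is a C2H2 zinc finger protein and a predicted transcription regulator. C1orf122 and C20orf96 are little characterised.

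The probes and the sites on these transcripts that resemble their targets come first, because hybridisation is the selecting step of the assay. The 22 CyCoNP probes are 20 bases long, and all 22 match the CyCoNP isoform that the study names without a mismatch, between its bases 50 and 1215 of 1369. The longest exact stretch that could pair with any CyCoNP probe was 13 bases in PRKRIP1, 12 in NUDT17, 11 in C20orf96, 10 in POPDC3, C1orf122 and ZNF627 and 9 in TULP3, over all transcripts of each gene in GENCODE v44. The median over the 12527 tested genes with a transcript in that annotation, the 7 included and CyCoNP left out, was 10 bases. Probe 7 held the longest stretch for PRKRIP1 and NUDT17 and is shown with its sites in both, and probe 2 is shown with its site in C20orf96. Probe 7 also held a 9-base stretch of TULP3, which had 3 sites of that length in its canonical transcript and is not shown. Capitals mark the bases that can pair, and every sequence is written 5′ to 3′.
CyCoNP probe 7 against PRKRIP1: taatcagGGGTGTTCTGCTC
PRKRIP1 site: gtaaaGAGCAGAACACCCttgcgt
CyCoNP probe 7 against NUDT17: taatcaGGGGTGTTCTGCtc
NUDT17 site: atctggGCAGAACACCCCcaccgt
CyCoNP probe 2 against C20orf96: gggaactGGAGGGAGAGGtc
C20orf96 site: cttcctCCTCTCCCTCCctccctc

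In GRCh38 the PRKRIP1 stretch lies in the 3′ UTR, in exon 6 of the canonical transcript, at chr7:102425434-102425446 on the plus strand. The NUDT17 stretch lies in the coding sequence and crosses the junction of exons 7 and 8 (chr1:145848261-145848384, plus strand, intron included), so it exists only in spliced RNA. The C20orf96 stretch lies in the 3′ UTR, in exon 11, at chr20:270998-271008 on the minus strand. Stretches of 13 bases or more were found in 304 tested genes (2.43%), of 12 or more in 1261 (10.1%) and of 11 or more in 4126 (32.9%). Of the 304 genes with at least 13 bases, 1 was called higher in CyCoNP PD than input, against 15 of all 12565 tested genes (0.119%). This was PRKRIP1, which was chosen on the CyCoNP PD libraries, so the call is a description. The median log2 fold change of the 304 genes was 0.02, against -0.01 over all tested genes. None of the 7 genes (0) reached 14 bases, and 59 other genes that did had 0 calls and a median log2 fold change of 0.26. The part of probe pairing in the recovery was not tested.

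The longest stretch that could pair with CyCoNP itself was 14 bases in C20orf96, 13 in C1orf122, 12 in PRKRIP1 and POPDC3, and 11 in NUDT17, ZNF627 and TULP3, with a median of 12 over the same 12527 genes. The C20orf96 and C1orf122 stretches are shown, as the longest of the 7, beside the bases of CyCoNP that can pair with them.
CyCoNP bases 972 to 985: GGAGGAAGGGCAGA
C20orf96 site: ctcccTCTGCCCTTCCTCCctctt
CyCoNP bases 439 to 451: GCGCTCCTCCCGG
C1orf122 site: ccgccCCGGGAGGAGCGCgcccag
The C20orf96 site is in the 3′ UTR at chr20:271074-271087 (minus strand), and the C1orf122 site is coding, in exon 2, at chr1:37808600-37808612 (plus strand). A stretch of at least 14 bases was present in 1698 genes (13.6%) and one of at least 13 bases in 4638 (37.0%). The 1698 genes had a median log2 fold change of -0.14. Of them 1 was called higher in CyCoNP PD than input, where 0.119% of all tested genes were called. This was C20orf96, which was also chosen on the CyCoNP PD libraries.

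As transcripts, the 7 are short to middling. The canonical transcripts run from 1329 bases in C1orf122 to 3080 in TULP3, and all 7 are shorter than the median of 3362 bases over 10482 tested coding genes. TULP3 and ZNF627 were still at or above 45.4% and 40.8% of coding genes in length. Their median 3′ UTR over the 7 genes was 573 bases, against 1372.5 over the coding genes, but PRKRIP1 (1558) and TULP3 (1697) exceeded that median. GC content ranged from 42.6% in ZNF627 to 69.4% in C1orf122, the latter at or above 99.6% of coding genes, and 5 of the 7 were above the median of 47.6%. Whether length or base composition bears on recovery was not tested.

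CyCoNP was recovered in both of its pull-downs. LINC02381 reached 11687 and 3507 counts in CyCoNP PD, where input held 20 and 39 and LacZ PD 1 and 20. The 6 libraries held 18870 to 1512148 counts, with the fewest in the LacZ PD libraries (18870 and 140115). A gene needed 159 CPM (counts scaled to a library total of 1000000) in LacZ PD 1 and 21.4 CPM in LacZ PD 2 to reach 3 counts, against 1.98 to 5.83 CPM in the other libraries. The 12 sympathoadrenal neuroblastoma markers were all detected in input (2419 to 3301 CPM together), whereas leukocyte, epithelial and endothelial markers had 0 to 10 counts in any library, and PTPRC, CD3E, KRT5, KRT14, CDH1, PECAM1 and VWF were at 0 in both input libraries. The summed level of the 6 fibroblast markers was higher in the libraries numbered 1 than in those numbered 2 in every group (input 520 and 48.0 CPM, CyCoNP PD 332 and 79.6 CPM, LacZ PD 477 and 28.5 CPM). COL1A1, COL1A2 and COL3A1 carried it in the libraries numbered 1. LUM went the other way in input and CyCoNP PD, and its 0 and 2 counts in LacZ PD were too few to show a direction. In CyCoNP PD, DCN (6 and 5 counts) and PDGFRB (7 and 9 counts) also had the higher level in the shallower library numbered 2, on few counts. The part of these markers in the results that follow was not tested. CRABP2, a retinoic acid-binding protein gene, had 171 and 198 counts in input, the most of 5 listed retinoic acid response markers. Among the others, DHRS3 had 64 and 41 counts, CYP26A1 35 and 21, CYP26B1 8 and 0 and RARB 1 and 2. A response to retinoic acid was not tested.

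Together the 7 genes made up 2799 and 3762 CPM of the CyCoNP PD libraries, against 135 and 74.5 CPM of input and 106 and 85.6 CPM of LacZ PD. Each of the 7 had its 2 highest values in the CyCoNP PD libraries, which was the ground for choosing them, and the same was true of 823 of the 12565 tested genes (6.55%). With edgeR's quasi-likelihood test all 7 were among the 15 genes called higher in CyCoNP PD than input (0.119% of tested genes, at an adjusted p under 0.05 and a log2 fold change above 1), and 1 gene was called lower (0.00796%). DESeq2 called the 7 among 58 genes (0.462%). With the replicate number as a block, edgeR called them among 192 (1.53%). In a fit of only the CyCoNP PD and input libraries none of the 7 was called (0), which also held without LacZ PD 1 and without LacZ PD 2, while their log2 fold changes stayed above 4 in the 2-group fit.

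**Figure D1:**
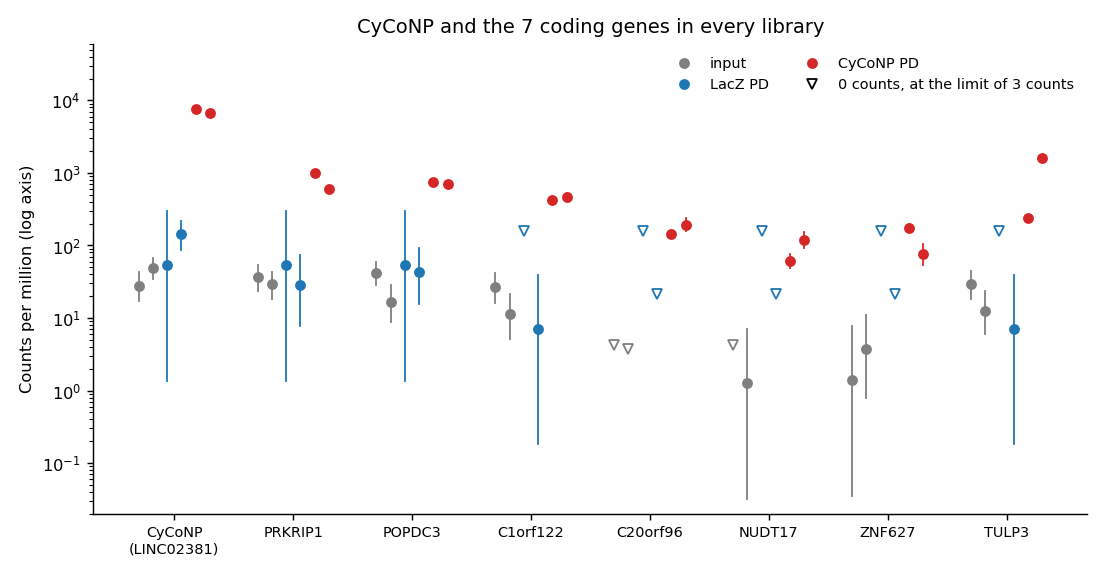
Each point is the level of a gene in 1 library in CPM (log axis), with the exact 95% binomial interval as a bar, for CyCoNP and the 7 coding genes; open triangles stand at the limit of 3 counts where a library had 0. In each gene the CyCoNP PD circles lie above all other circles. Both LacZ PD libraries are triangles in C20orf96, NUDT17 and ZNF627, and LacZ PD 1 is also a triangle in C1orf122 and TULP3. The LacZ PD 1 triangles, at 159 CPM, stand above a CyCoNP PD circle in C20orf96, NUDT17 and ZNF627.

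PRKRIP1 (ENSG00000128563, chr7:102363872-102426676, plus strand) reached 1501 and 305 counts in CyCoNP PD, where input held 26 and 23 and LacZ PD 1 and 4. Its level was thus 36.2 and 29.0 CPM in input against 993 and 592 CPM in CyCoNP PD, and the groups did not overlap. The intervals of the CyCoNP PD libraries, 943 to 1044 and 528 to 663 CPM, do not overlap, though they are too narrow where amplified reads share a molecule. The log2 fold change over input was 4.68 ± 0.70 (SE, n = 2 libraries per group). Of the spliceosome C complex, to which PRKRIP1 belongs, all 36 listed partners were tested and none was called in any comparison (0), which is near the background, since edgeR called 0.119% of genes higher in CyCoNP PD than input and 0 in the comparisons with LacZ PD. The same holds for the other gene lists. The partners' median log2 fold change in CyCoNP PD over input was 0.00, with 18 of 36 above 0 and values between -1.17 and 1.74. FAM32A and BUD31, the partners with the most input counts, had 408 and 607 and 374 and 319 counts in input and log2 fold changes of -0.73 ± 0.59 and -0.08 ± 0.60. Nor was any of the 6 genes of the PKR axis called (0). EIF2AK2, which encodes PKR, gave 75 and 113 input counts beside 94 and 33 with CyCoNP, a log2 fold change of -0.92 ± 0.61.

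POPDC3 (ENSG00000132429, chr6:105157900-105180014, minus strand) reached 1140 and 365 counts in CyCoNP PD, where input held 30 and 13 and LacZ PD 1 and 6. Its 754 and 709 CPM in the CyCoNP PD libraries were the closest pair of the 7 genes, a 1.06-fold difference whose intervals overlap, while input (41.8 and 16.4 CPM) varied more. The log2 fold change was 4.75 ± 0.72. Its paralogue BVES, which encodes another Popeye domain protein and lies 20743 bases away on the same strand, gave 10 and 7 input counts beside 15 and 2 with CyCoNP, a log2 fold change of -0.51 ± 1.12. The third family member, POPDC2, had at most 2 counts in any library and was not tested. Of the 8 tested genes among 11 Popeye and cyclic AMP effector genes, none was called with edgeR (0), and the median log2 fold change was -0.29. DESeq2 called PRKACA, a catalytic subunit of the cyclic AMP-dependent kinase, between CyCoNP PD (475 and 173 counts) and LacZ PD (1 and 4).

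TULP3 (ENSG00000078246, chr12:2877223-2941138, plus strand) reached 363 and 823 counts in CyCoNP PD, where input held 21 and 10 and LacZ PD 0 and 1. It differed most between the CyCoNP PD libraries, at 240 and 1598 CPM, a 6.66-fold gap with the higher level in the shallower library. The intervals, 216 to 266 and 1491 to 1711 CPM, lie far apart. Among 2677 genes with at least 100 counts over both libraries the median gap was 1.37-fold. Counting gaps in either direction, 5.53% of them were as far apart as TULP3. The gaps were lopsided, since the log2 ratio of CyCoNP PD 1 to CyCoNP PD 2 had 5th and 95th percentiles of -1.13 and 2.76. TULP3, at -2.74, lay far below the 5th percentile, so less than 5% of the genes were as far apart in its direction. The log2 fold change over input was 5.51 ± 0.95, with 3.64 without CyCoNP PD 2 and 6.32 without CyCoNP PD 1. TUB and TULP4, the other tubby genes that were tested, had log2 fold changes of -1.76 ± 0.84 and 1.47 ± 0.75 and were not called, and TULP1 and TULP2 had 0 counts in every library. The IFT-A partners of TULP3 were not called either (0 of 5 tested, median log2 fold change 0.55). Among 13 genes for ciliary cargo and Hedgehog signalling, 6 were tested and 0 called.

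C1orf122 (ENSG00000197982, chr1:37806979-37809454, plus strand) reached 650 and 243 counts in CyCoNP PD, where input held 19 and 9 and LacZ PD 0 and 1. The CyCoNP PD libraries lay close together, at 430 and 472 CPM, with overlapping intervals, against 26.5 and 11.4 CPM in input. The log2 fold change was 4.66 ± 0.72.

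C20orf96, NUDT17 and ZNF627 were rare in the extract. C20orf96 (ENSG00000196476, chr20:270863-290778, minus strand) reached 218 and 100 counts in CyCoNP PD and 0 in each of the other 4 libraries. At 144 and 194 CPM, it exceeded the input limit of 3 counts per library at least 42.5-fold, and its fitted log2 fold change depends on the prior count and is not given. NUDT17 (ENSG00000186364, chr1:145845630-145848954, plus strand) reached 93 and 62 counts in CyCoNP PD, 0 and 1 in the inputs and 0 in both LacZ PD libraries. With that 1 input count, the ratio of pooled counts per total was 115, with an exact 95% counting interval from 20.4 to 4589.

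ZNF627 (ENSG00000198551, chr19:11559374-11619161, plus strand) reached 267 and 39 counts in CyCoNP PD, 1 and 3 in the inputs and 0 in both LacZ PD libraries. The pooled ratio was 57.0 (from 22.0 to 210.5). Between the CyCoNP PD libraries ZNF627 differed, at 177 and 75.7 CPM, a 2.33-fold gap, whereas NUDT17 was 1.96-fold and C20orf96 1.35-fold higher in CyCoNP PD 2. Gaps of these sizes or more, in either direction, were seen in 15.4%, 21.1% and 51.9% of the 2677 genes.

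Relatives of NUDT17 and ZNF627 were not called. Of 22 other Nudix genes, 18 were tested and none was called (0), and NUDT21 and NUDT5, the most abundant in input, had log2 fold changes of -0.35 ± 0.62 and 0.83 ± 0.62. The median over the 18 was 0.64, with 15 above 0. Of 24 zinc finger genes in the same 19p13.2 cluster as ZNF627, 13 were tested and none was called (0), with a median of -0.14. ZNF625 gave 33 and 14 input counts beside 26 and 1 with CyCoNP.

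**Figure D2:**
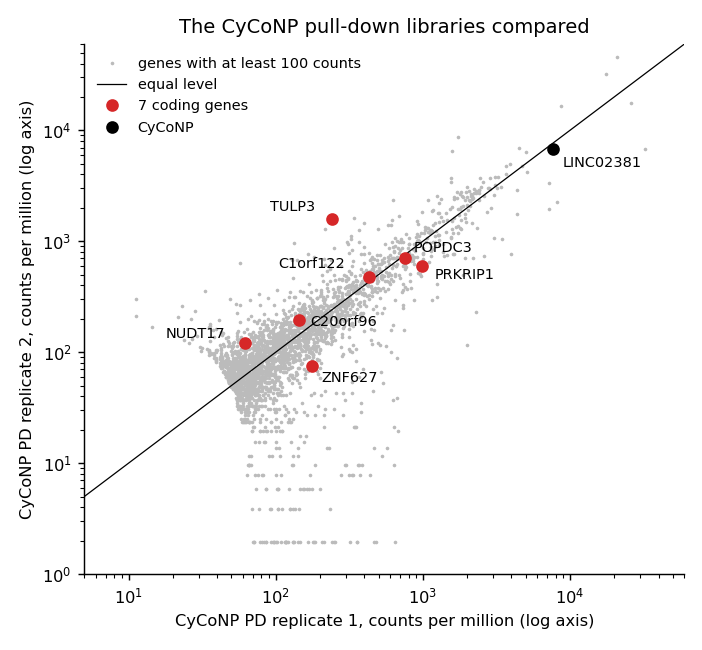
Level in CyCoNP PD replicate 1 (x axis) against replicate 2 (y axis), both in CPM on log axes, for genes with at least 100 counts over both libraries and a count above 0 in each (grey), the 7 coding genes (red) and CyCoNP (black). POPDC3 and C1orf122 lie near the line of equal level, and TULP3 lies 6.66-fold off it.

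In input, 4 of the 7 transcripts were of middling abundance and 3 were near the bottom. By mean CPM, without correction for length since 1 long read stands for 1 cDNA, PRKRIP1 was at or above 70.0% of tested genes, POPDC3 67.6%, TULP3 59.2% and C1orf122 56.2%. ZNF627 was at or above 6.55%, NUDT17 1.35% and C20orf96 0.883%, but these 3 genes passed the minimum of 10 counts only through the CyCoNP PD libraries they were chosen on, so their place among the tested genes was fixed by the choice. The neighbours in this order PRKRIP1 and POPDC3 differed by less than the spread of their input libraries (32.6 ± 5.07 and 29.1 ± 17.9 CPM, SD, n = 2), as did TULP3 and C1orf122 (20.9 ± 11.8 and 18.9 ± 10.7 CPM). In CyCoNP PD the level of TULP3 was 919 ± 961 CPM, a spread larger than its mean, and it cannot be placed in an order with PRKRIP1 (792 ± 283) or POPDC3 (731 ± 31.8).

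The LacZ pull-down bears on how much of each transcript came down without the CyCoNP probes. LacZ PD against input is the contrast that does not involve the CyCoNP PD libraries. It does share the input libraries with the choice of genes. The 7 genes had 14 counts in the 2 LacZ PD libraries together. At their mean share in input 16.7 counts would fall there, and at their mean share in CyCoNP PD 521.5. Of the 14 counts, 7 were of POPDC3, 5 of PRKRIP1 and 1 each of C1orf122 and TULP3. The other 3 genes had 0 where 14.5 (NUDT17), 20.1 (ZNF627) and 26.9 (C20orf96) counts would fall at the CyCoNP PD share. The CyCoNP PD shares are those the genes were chosen on, so gaps to these counts and to 521.5 are a description.

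Shares in LacZ PD and in input could be compared for 4 of the 7 genes. The log2 fold change was -0.31 ± 0.82 for PRKRIP1 (edgeR adjusted p = 0.908) and 0.31 ± 0.80 for POPDC3 (adjusted p = 0.907), and the intervals of the pooled ratios, 0.301 to 2.42 and 0.587 to 3.47, still admit a 2.42-fold and a 3.47-fold excess. C1orf122 (-1.84 ± 1.20, adjusted p = 0.764) and TULP3 (-1.98 ± 1.52, adjusted p = 0.771) rest on 1 LacZ PD count each, with pooled ratios of 0.339 (0.0083 to 2.05) and 0.306 (0.0075 to 1.84). No fold is given for C20orf96, NUDT17 and ZNF627, which had at most 3 counts in every library of both groups. Over all genes, edgeR called 0 higher (0%) and 0 lower (0%) in LacZ PD than input, with 93 and 789 at an unadjusted p under 0.05, so the absence of a call in these genes says little at this depth, and DESeq2 called 7 and 47. The median log2 fold change of all tested genes in this comparison was -0.68. CyCoNP itself was at 1.20 ± 0.82 (adjusted p = 0.768).

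**Figure D3:**
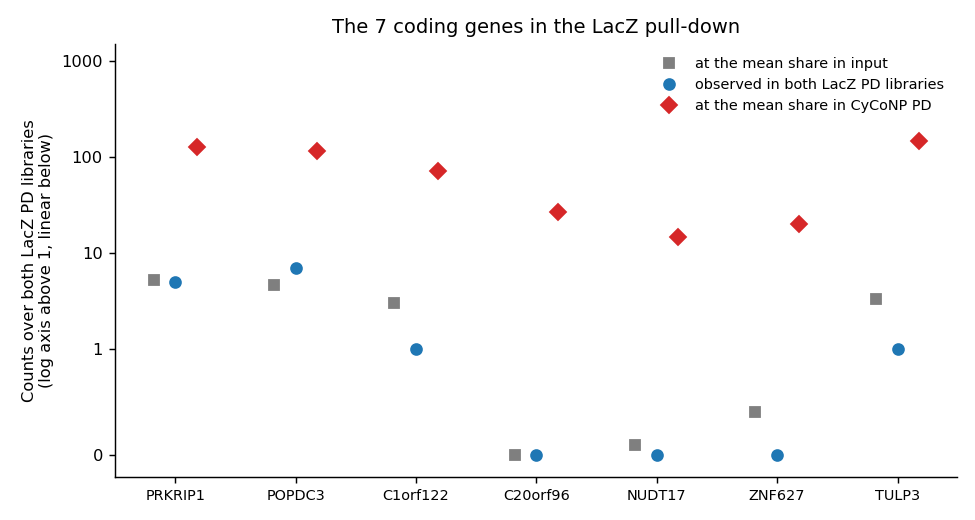
Counts of each of the 7 genes over both LacZ PD libraries (blue circles), beside the counts that would fall there at the gene's mean share in input (grey squares) and in CyCoNP PD (red diamonds), on an axis that is logarithmic above 1 and linear below. The observed counts run from 0 to 7, the grey squares from 0 to 5.19 and the red diamonds from 14.5 to 146. The red diamonds rest on the libraries the genes were chosen on.

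Set directly against LacZ PD, the CyCoNP PD levels were higher for each gene, and the size of the excess was limited by the control's depth. The pooled ratio was 28.3 (12.1 to 87.4) for PRKRIP1, 16.9 (8.16 to 42.0) for POPDC3, 70.0 (12.5 to 2769) for C1orf122 and 93.0 (16.7 to 3677) for TULP3. Against the mean of the LacZ PD limits of 3 counts per library (90.2 CPM), C20orf96 was at least 1.88-fold higher, ZNF627 at least 1.40-fold and NUDT17 at least 1.01-fold. That mean is set mostly by the shallow LacZ PD 1, so these bounds cannot be compared with the pooled ratios. Without LacZ PD 1, whose limit of 159 CPM exceeds the mean CyCoNP PD level of ZNF627 (126 CPM) and NUDT17 (91.0 CPM), these bounds became 7.90, 5.89 and 4.25. Without LacZ PD 2 they became 1.06, 0.794 and 0.572, so that of these 3 genes only C20orf96 kept a bound above 1. With edgeR 0 genes of the table were called higher (0%) or lower (0%) in CyCoNP PD than LacZ PD, with 595 and 58 at an unadjusted p under 0.05, so 0 of the 7 were called. DESeq2 called 5 of the 7 among 36 higher genes (0.287%), with no call for ZNF627 and no adjusted p for NUDT17. With the replicate block edgeR called all 7 among 91 (0.724%). These calls use the libraries the genes were chosen on.

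The genes that lie beside the 7 in the genome were not used in choosing them. Of the 14 nearest coding genes, 1 on each side, 11 were tested. Their log2 fold changes in CyCoNP PD over input ran from -0.92 (ORAI2) to 1.74 (SPDYE6). Of the 11, 0 were called, near the 0.119% of all tested genes called higher. FOXM1, a cell cycle transcription factor whose gene starts 49 bases from TULP3 on the other strand, gave 12 and 18 input counts beside 21 and 13 with CyCoNP. ELOF1, a transcription elongation factor gene 144 bases from ZNF627, gave 28 and 43 input counts beside 116 and 33 with CyCoNP, a log2 fold change of 0.65 ± 0.70. MTF1, a metal-responsive transcription factor gene 120 bases from C1orf122, gave 7 and 3 input counts beside 33 and 2 with CyCoNP (1.12 ± 1.06).

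Annotated genes also overlap 6 of the 7, and since the strand setting of the counting is not given in the sources used here, reads from such pairs might be exchanged. YRDC, a tRNA modification enzyme gene antisense to C1orf122, gave 20 and 34 input counts beside 27 and 10 with CyCoNP, a log2 fold change of -0.88 ± 0.68. RHNO1, a DNA damage checkpoint gene that overlaps TULP3 on the same strand, gave 9 and 13 input counts beside 29 and 13 with CyCoNP (0.64 ± 0.77). PIAS3, antisense to NUDT17, gave 3 and 4 input counts beside 4 and 4 with CyCoNP, and ACP5, antisense to ZNF627, 4 and 2 and 7 and 3. BVES-AS1, antisense to POPDC3, reached 4 and 1 counts in CyCoNP PD, 0 in both inputs and 0 and 2 in LacZ PD, where its mean level was higher (7.14 CPM against 2.29 CPM in CyCoNP PD). Of the 10 overlapping genes in the table, YRDC, RHNO1, PIAS3 and ACP5 were tested. Of these 0 were called, near the 0.119% of all tested genes called higher. The other 6 had too few counts to be tested. In CyCoNP PD, on which the 7 were chosen, the overlapping genes had fewer counts than the gene they overlap. In input, YRDC, PIAS3 and ACP5 had more in all than C1orf122, NUDT17 and ZNF627.

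**Figure D4:**
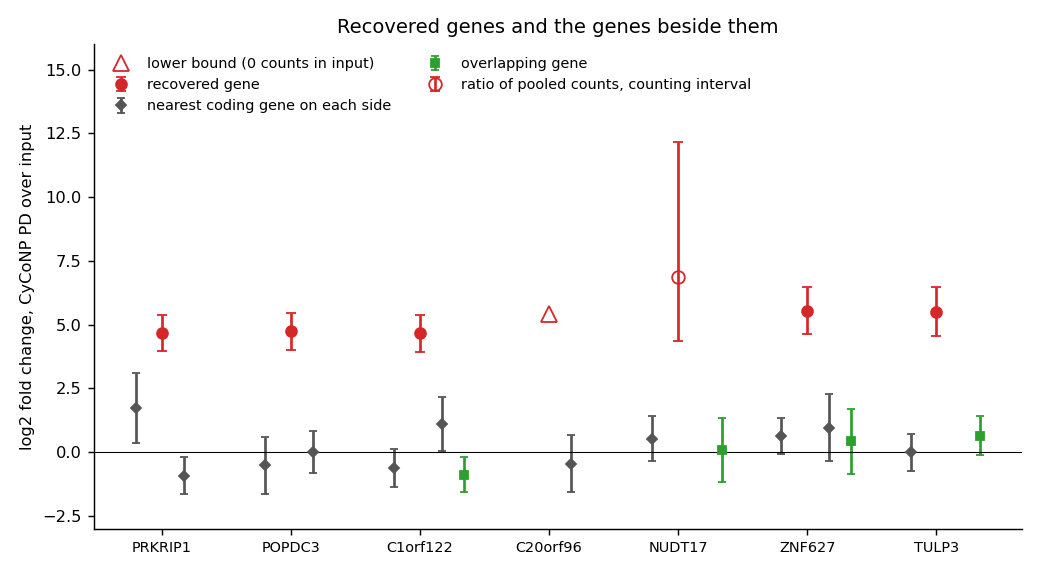
The y axis gives the log2 fold change in CyCoNP PD over input for each of the 7 genes (red circles), their nearest coding genes (grey diamonds) and overlapping genes (green squares), with bars of ± SE; the open triangle is a lower bound for C20orf96 and the open circle the pooled ratio of NUDT17 with its counting interval. Neighbours and overlapping genes with a fit lie between -0.92 and 1.74. They lie below each of the 7 genes, which were chosen for high counts in CyCoNP PD.

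The genes whose profile over the 6 libraries was most like the mean log2 CPM profile of the 7 were TTL (Pearson r = 0.994), UNC5A (0.994), NPIPB3 (0.993), ENSG00000280063 (0.992) and CARM1 (0.992). These correlations have 6 points that fall into 3 groups and differ in depth, and they carry no test. TTL, which encodes tubulin tyrosine ligase, gave 104 and 100 input counts beside 729 and 262 with CyCoNP, a lower excess than any of the 7. UNC5A, a netrin receptor of developing neurons, gave 1 and 0 input counts beside 38 and 13 with CyCoNP. CARM1, an arginine methyltransferase, gave 1 and 1 beside 37 and 10, and ENSG00000280063, an unnamed locus, 1 and 0 beside 93 and 60. Like the 7, ENSG00000280063 was among the 15 genes that edgeR called higher in CyCoNP PD than input (adjusted p = 0.0251). TTL, UNC5A, NPIPB3 and CARM1 were not called. NPIPB3 belongs to a family of near-identical copies, and its counts are uncertain. An r of at least 0.9 was reached by 182 of 12558 genes (1.45%), and CyCoNP had 0.968.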

How the data were processed

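Per the study's methods, the authors sequenced PCR-amplified cDNA by Nanopore, aligned the reads to GRCh38 (minimap2 2.24-r1122 per the submitters' processing notes) and counted them per gene with Bambu. They deposited raw counts and the same values as CPM. The deposited CPM equalled the counts divided by the library total to within 5.09e-11 and were used only for this check. Symbols and positions came from GENCODE v44, which named 60357 of 60676 genes.

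Genes with at least 10 counts in all were tested with edgeR 4.0.16 (TMM, quasi-likelihood test, all 6 libraries in 1 fit) in R 4.3.3, with Benjamini-Hochberg adjustment, and with DESeq2 1.42.0 as an alternative. The code was tested on simulated data. Intervals are exact (Clopper-Pearson) at 95%, and limits are 3 counts per library. Both cover only the error of counting, because amplified reads that carry no molecular identifier need not stand for separate molecules. P-values rest on the spread between 2 libraries per group. In the main fit this spread was estimated over all 3 groups and moderated across genes, so a comparison of 2 groups also depends on the third. Each SE is the log2 fold change, without its sign, divided by the square root of the F statistic.

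The members and gene lists were chosen with earlier results of these data known. Other genes named were, by rule, the 2 of each list with the highest mean input CPM and any called, the nearest coding gene on each side, every overlapping gene, and the 5 most like profiles. Another gene that the rule names is not reported here. POPDC2, TULP1, TULP2, COL3A1, LUM, DCN, PDGFRB, RARB, CYP26A1, CYP26B1 and the list members at 0 were named after their values were seen. Deviations from the group means correlated at 0.257 to 0.449 between same-numbered libraries. With 2 libraries a group the deviations mirror each other, so each pair of groups gives a single value. No source says that a number marks a shared extract. The main fit and DESeq2 therefore ignored the numbers, and a possible pairing entered only through the replicate block, as an alternative. Complementarity was the longest exact stretch over all transcripts of a gene. The alternatives were other scalings, no count filter, fits of 2 groups, the replicate block and leaving out each library.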

Additional observations from a re-analysis of the deposited data

How the results depend on the processing

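The genes called higher and lower in CyCoNP PD than input numbered 15 and 1, and became 6 and 0 with library size alone, 58 and 14 with DESeq2, 99 and 27 without the count filter, 0 and 0 with only the 2 groups compared, 192 and 92 with the replicate block, and 0 to 91 and 0 to 45 on leaving out a library. In LacZ PD against input, 0 and 0 became 7 and 47 with DESeq2, 7 and 29 without the filter, 5 and 17 with the 2 groups, 16 and 100 with the block, and 0 to 10 and 0 to 19 on leaving out a library. In CyCoNP PD against LacZ PD, 0 and 0 became 1 and 0 with library size alone, 36 and 2 with DESeq2, 59 and 3 without the filter, 57 and 4 with the 2 groups, 91 and 6 with the block, and 0 to 58 and 0 to 7 on leaving out a library. The cause was not tested.

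All 7 genes were called higher in CyCoNP PD than input by edgeR with all libraries, RLE size factors, DESeq2, the fit without the filter, the replicate block, and without each input or CyCoNP PD library. Library size alone called 4, losing NUDT17, ZNF627 and TULP3, and the 2-group fit and the fits without LacZ PD 1 or LacZ PD 2 called 0. In LacZ PD against input, the log2 fold change turned to 0.038 in PRKRIP1 with library size alone. On leaving out a library it ran from -0.26 (without LacZ PD 2; -0.14 without input 2) to 0.95 in POPDC3 and from -0.72 (without LacZ PD 2) to 1.80 in LINC02381, and none of these was called. LacZ PD 1 could not show ZNF627 or NUDT17 at their CyCoNP PD level, so the control comparison of these genes rests on LacZ PD 2.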
